A study of Homo sapiens with 10 samples.

Results

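G2/M and mitosis genes are the genes that carry a cell through the end of its cycle, from the activation of CDK1 to the separation of the daughter cells. Their RNA was followed here for 32 genes, taken by gene symbol from a list of cyclins, kinases, checkpoint and kinetochore proteins, kinesins, spindle proteins and chromosome proteins. This list, and the lists of other genes used below, were chosen with earlier results of these data known. The genes followed are 32 of the 58735 genes in the deposited tables. All 32 were found in both tables and passed the filter on low counts in each comparison. All libraries were made from TPC-1, a long-established cell line of a human papillary thyroid carcinoma. Cells with overexpression of PTCSC3-AS1 (OE, n = 5), a long non-coding RNA, were set against cells with an empty vector (EV, n = 5), all in the same line and with no other named treatment. The authors deposited replicates 4 and 5 of OE and EV in a table of their own, the second set, and replicates 1 to 3 in a separate one, the first set. Not given in the sources used here are what separates the sets, whether they share a vector, whether the cells were clones or pools, and whether replicates were separate cultures. A p-value below therefore measures only how these libraries vary, and that variation may be technical.

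In dividing cells, cyclin B activates CDK1 at the end of G2, and CDC25 phosphatases remove the inhibitory phosphates from it. The spindle checkpoint kinases then hold back the anaphase-promoting complex until every kinetochore is attached, after which CDC20 directs this ubiquitin ligase to cyclin B and to the inhibitor of separase. Most of these genes are transcribed late in the cycle, through the DREAM and MuvB complexes, B-MYB and FOXM1, so their summed RNA is widely used as a proliferation index of tumours, thyroid carcinomas included. In bulk RNA, fewer cells in G2 and mitosis and less of these RNAs per cell cannot be told apart.

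The overexpressed RNA could not be checked, because neither table lists a gene of that name, and the gene named PTCSC3 had 0 counts in all 10 libraries (3 counts, the limit that a count of 0 allows, are 0.166 to 0.190 CPM, that is, counts scaled to the library total). The libraries held 15761474 to 18066559 counts, with a count for 20630 to 22029 genes. Of the identity markers, PAX8 (348 to 479 CPM over the 10 libraries), KRT18 (225 to 298) and KRT8 (82.9 to 163) were present, while the thyroid genes NKX2-1 and TSHR were at 0 in every library. Markers of other cells were low. The leukocyte list summed to 0.525 to 1.38 CPM in OE libraries and 0.283 to 1.56 in EV libraries. The endothelial list summed to 0.298 to 0.996 and 0.698 to 1.21, and the fibroblast list to 7.35 to 9.70 and 6.25 to 8.12. CD3E, KDR, COL1A2, COL3A1 and DCN were at 0 in all 10. PDGFRB had 4.32 to 5.48 CPM in OE and 2.31 to 4.82 in EV, and COL1A1 2.45 to 4.61 and 2.15 to 3.47. CD14, PECAM1 and LUM also had counts in every library. EV replicate 2 stood apart in the share of counts from ribosomal protein genes, at 6.37% against 4.30% to 5.28% in the other 9 libraries.

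Promoters of such genes are known to carry the cell cycle homology region, the CHR, which MuvB complexes bind, downstream of CCAAT boxes bound by NF-Y. RefSeq (GRCh38.p14) gave the bases before the start for 26 of the 32 genes, and AURKA, TTK, UBE2C, TPX2, BIRC5 and FOXM1 were not matched. In the 250 bases before the start, the letters TTTGAA of the CHR, or TTCAAA on the other strand, stood in 15 of the 26 genes (57.69%), against 16.05% of 27305 genes with such a window. The letters CCAAT, or ATTGG on the other strand, stood in 21 of 26 (80.77%), against 37.0% of all genes, and both motifs in 14 of 26 (53.85%), against 5.79% of all genes. A CHR match lay in the last 50 bases before the start in 10 of 26 genes (38.46%), against 2.88% of all genes, a window chosen after the positions were seen. The 7 windows below belong to the cyclin B genes and to those genes that hold both motifs and had one of the 3 lowest p-values in a comparison described further on, and capitals mark every match, with a run of capitals where matches touch or overlap. They span chr5:69166900-69167149, chr15:59104896-59105145, chr16:23678639-23678888, chr1:43358731-43358980, chr2:26785806-26786055, chr15:90994536-90994785 and chr5:163460382-163460631, the PRC1 window on the minus strand and the others on the plus strand.
CCNB1: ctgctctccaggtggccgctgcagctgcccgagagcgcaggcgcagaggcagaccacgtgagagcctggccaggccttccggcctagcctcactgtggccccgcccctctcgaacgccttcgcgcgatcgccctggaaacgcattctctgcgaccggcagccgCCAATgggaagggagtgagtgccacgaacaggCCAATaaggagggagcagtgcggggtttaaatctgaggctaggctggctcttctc
CCNB2: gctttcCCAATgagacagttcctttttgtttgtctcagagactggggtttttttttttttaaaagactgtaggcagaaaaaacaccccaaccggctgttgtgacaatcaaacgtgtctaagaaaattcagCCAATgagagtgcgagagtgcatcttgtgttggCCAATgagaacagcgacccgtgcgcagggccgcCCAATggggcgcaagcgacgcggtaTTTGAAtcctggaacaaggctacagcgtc
PLK1: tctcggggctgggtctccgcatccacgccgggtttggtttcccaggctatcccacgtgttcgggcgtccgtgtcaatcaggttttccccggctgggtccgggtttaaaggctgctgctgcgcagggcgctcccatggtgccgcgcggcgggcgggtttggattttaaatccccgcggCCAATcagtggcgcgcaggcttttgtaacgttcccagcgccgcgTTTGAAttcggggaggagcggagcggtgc
CDC20: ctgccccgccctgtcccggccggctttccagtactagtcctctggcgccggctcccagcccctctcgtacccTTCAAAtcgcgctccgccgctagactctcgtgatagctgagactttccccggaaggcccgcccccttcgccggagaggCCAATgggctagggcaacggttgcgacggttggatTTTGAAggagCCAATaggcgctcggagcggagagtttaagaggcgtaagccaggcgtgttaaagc
CENPA: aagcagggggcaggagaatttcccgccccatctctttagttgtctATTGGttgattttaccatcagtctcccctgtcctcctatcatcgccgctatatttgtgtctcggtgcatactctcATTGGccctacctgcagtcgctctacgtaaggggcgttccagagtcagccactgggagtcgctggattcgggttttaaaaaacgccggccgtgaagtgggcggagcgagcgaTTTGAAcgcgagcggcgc
PRC1: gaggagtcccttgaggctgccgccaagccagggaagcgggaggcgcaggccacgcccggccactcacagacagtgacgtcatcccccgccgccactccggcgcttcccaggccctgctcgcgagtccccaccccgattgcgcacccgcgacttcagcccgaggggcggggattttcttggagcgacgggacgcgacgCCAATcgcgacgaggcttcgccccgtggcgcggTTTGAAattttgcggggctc
HMMR: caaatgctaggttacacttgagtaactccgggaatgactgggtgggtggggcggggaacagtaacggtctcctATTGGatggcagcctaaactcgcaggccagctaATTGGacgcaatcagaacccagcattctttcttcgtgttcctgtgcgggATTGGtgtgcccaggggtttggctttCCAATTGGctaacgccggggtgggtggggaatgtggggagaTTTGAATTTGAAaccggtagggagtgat
CCNB1 holds 2 CCAAT matches, beginning 87 and 55 bases before the start, and no CHR match within these letters. In CCNB2 and PLK1 the CHR begins 29 bases before the start, and their last CCAAT match begins at 54 and 73 bases. HMMR has a pair of adjoining CHR matches at 28 and 22 bases, and CCNB2 has 4 and HMMR 5 CCAAT matches in the window. CDC20 has CHR matches at 178 and 65 bases and CCAAT matches at 100 and 55 bases, so its last CCAAT match lies downstream of the CHR matches. CENPA has a CHR match at 18 bases and PRC1 one at 20 bases. A match is a run of letters, and binding was not measured.

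Per length of transcript, RNA of the proliferation machinery was abundant in TPC-1 cells of both groups. Levels are given as TPM, the deposited counts divided by the deposited gene length and scaled to a fixed sum per library. CDC20, the activator of the anaphase-promoting complex, was the highest of the 32 genes at 528 ± 34.5 TPM in OE and 494 ± 44.7 TPM in EV. UBE2C, the ubiquitin-conjugating enzyme of the same complex, followed with 495 ± 42.7 TPM in OE and 453 ± 63.1 TPM in EV, and CCNB1, the main mitotic cyclin, with 406 ± 30.9 TPM in OE and 413 ± 28.9 TPM in EV. These 3 genes lay above 97.7% or more of all tested genes in mean TPM. The second B-type cyclin gene CCNB2 was lower, with 89.3 ± 8.84 TPM in OE and 90.0 ± 6.0 TPM in EV, while CCNA2, the cyclin of S phase and G2, had 196 ± 21.9 TPM in OE and 198 ± 13.8 TPM in EV and CDK1 140.2 ± 8.74 TPM in OE and 137 ± 10.3 TPM in EV.

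Among the kinases, AURKA, which acts at the spindle poles, had 296 ± 14.3 TPM in OE and 289 ± 12.5 TPM in EV. PLK1, which acts from mitotic entry to cytokinesis, had 160.1 ± 12.7 TPM in OE and 153 ± 21.5 TPM in EV, and AURKB, the kinase of the chromosomal passenger complex, 143 ± 17.4 TPM in OE and 136 ± 14.9 TPM in EV. The checkpoint kinase genes were lower than CDC20 on this scale. BUB1 had 88.2 ± 4.35 TPM in OE and 85.6 ± 6.65 TPM in EV, BUB1B, which encodes the checkpoint inhibitor BUBR1, 62.0 ± 5.47 TPM in OE and 61.0 ± 8.28 TPM in EV, and TTK, the apical checkpoint kinase also called MPS1, 45.0 ± 4.70 TPM in OE and 44.9 ± 4.92 TPM in EV. The spindle assembly factor TPX2, which activates AURKA, had 301 ± 10.9 TPM in OE and 297 ± 25.1 TPM in EV, close to AURKA itself. TOP2A, which untangles sister chromatids, had 218 ± 10.7 TPM in OE and 210.1 ± 28.3 TPM in EV, MKI67, the Ki-67 antigen that coats mitotic chromosomes, 131 ± 11.2 TPM in OE and 131 ± 37.9 TPM in EV, and the transcription factor FOXM1 145 ± 15.1 TPM in OE and 137 ± 26.3 TPM in EV.

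The kinesin genes had 116 ± 6.45 TPM in OE and 116 ± 17.1 TPM in EV (KIF11, which pushes the spindle poles apart), 107 ± 4.16 TPM in OE and 101 ± 10.5 TPM in EV (KIF2C, which depolymerises microtubules at centromeres), 98.9 ± 5.68 TPM in OE and 96.8 ± 10.8 TPM in EV (KIF20A) and 66.6 ± 4.54 TPM in OE and 66.5 ± 6.68 TPM in EV (KIF23), the last 2 being motors of the central spindle. At the kinetochore, CENPF, a large protein of its outer layer, had 85.1 ± 6.57 TPM in OE and 83.4 ± 21.0 TPM in EV, and CENPA, the histone H3 variant that marks centromeres, 75.2 ± 7.72 TPM in OE and 76.0 ± 7.32 TPM in EV. NUF2 and NDC80, which pair in the complex that grips microtubule ends, had 58.9 ± 2.98 TPM in OE and 62.9 ± 3.76 TPM in EV (NUF2) and 46.1 ± 2.98 TPM in OE and 43.9 ± 6.06 TPM in EV (NDC80). Of the spindle proteins, BIRC5, which encodes survivin of the passenger complex, had 155 ± 7.95 TPM in OE and 143 ± 7.78 TPM in EV. DLGAP5, which stabilises kinetochore fibres, had 73.4 ± 3.53 TPM in OE and 70.6 ± 4.87 TPM in EV, ASPM, which focuses spindle poles, 42.7 ± 3.27 TPM in OE and 44.9 ± 10.8 TPM in EV, and HMMR, a spindle protein also known as a hyaluronan receptor, 41.8 ± 4.37 TPM in OE and 42.1 ± 5.69 TPM in EV. Among the genes of this paragraph, the OE and EV means of NUF2 and BIRC5 lay further apart than the larger SD of the groups, and those of the others did not.

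The lowest levels belonged to PRC1, NUSAP1, CDC25C and CENPE. CDC25C, the phosphatase that acts on CDK1, had 14.0 ± 1.58 TPM in OE and 13.9 ± 1.56 TPM in EV, and CENPE, a kinesin of the kinetochore that carries chromosomes to the metaphase plate, 18.4 ± 1.44 TPM in OE and 21.4 ± 4.45 TPM in EV. NUSAP1, a microtubule-bundling protein of the spindle, had 11.7 ± 2.26 TPM in OE and 12.2 ± 2.10 TPM in EV, and PRC1, which crosslinks antiparallel microtubules of the spindle midzone, 0.647 ± 0.103 TPM in OE and 0.478 ± 0.330 TPM in EV, with 2.22% of tested genes below it. These 2 genes also share the largest part of their exons with another gene in GENCODE 29, which gives the deposited lengths of all 32 genes. NUSAP1 shares 62.2% of its exonic bases with AC087721.2, which was at 0 in all 10 libraries, and PRC1 shares 58.4% with AC068831.7 (3.19 to 8.40 CPM, median 5.86) or PRC1-AS1. The sources used here do not give how reads in shared exons were assigned, so the levels of NUSAP1 and PRC1 are uncertain. FOXM1 (15.9%), PLK1 (12.5%) and BUB1B (10.2%) share less, and 19 of the 32 genes share no exonic base.

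**Figure D1:**
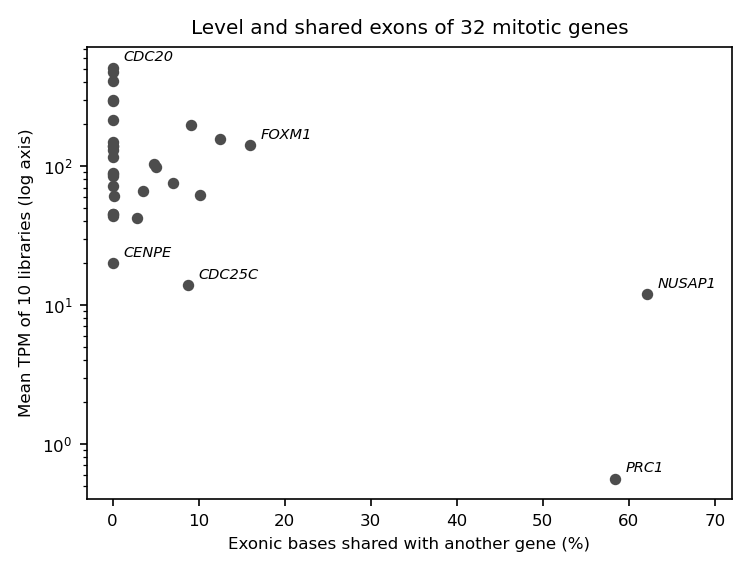
Each point is 1 of the 32 genes, with the percent of its exonic bases shared with another annotated gene on the x axis and its mean TPM over the 10 libraries on a log y axis. PRC1 and NUSAP1 are the only points above 20% shared bases, and PRC1 has the lowest TPM.

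In OE cells, no change in any of the 32 genes passed the test over both sets. The edgeR quasi-likelihood test with Benjamini-Hochberg adjustment called 0 of 32 genes, and 0.0% of the 14217 genes tested (limma-voom and DESeq2 also called 0 of the 32). At an unadjusted p under 0.05, edgeR counted 0 of 32, against 5.71% of all genes tested. The median log2 change of the 32 genes was 0.01, beside -0.0028 for all genes, with 19 above and 13 below 0. Changes ran from -0.22 (CENPE) to 0.11 (UBE2C), apart from PRC1 at 0.48. For 31 of the 32 genes, all but PRC1, the 95% interval excluded a change of 1.5-fold or more in either direction. For no gene did all 5 OE libraries lie above or below all 5 EV libraries, against 0.549% of all genes tested.

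Taken by role, the 5 genes for cyclins, CDK1 and its phosphatase had a median log2 change of -0.03, with values from -0.05 for CCNB1 to 0.01 for CDK1. The 3 kinase genes had a median of 0.05, with PLK1 at 0.06 (95% interval -0.09 to 0.21). The 5 checkpoint and anaphase-promoting complex genes had a median of 0.03. Their largest values were UBE2C at 0.11 (95% interval -0.10 to 0.31) and CDC20 at 0.08. The 4 kinesin genes had values from -0.01 (KIF23) to 0.07 (KIF2C). The 5 centromere and kinetochore genes had a median of -0.03, and the 7 genes of spindle assembly, central spindle and passenger complex one of 0.0023. TOP2A had 0.04, MKI67 0.01 (95% interval -0.30 to 0.31) and FOXM1 0.08 (95% interval -0.15 to 0.30).

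The 3 genes with the lowest p-values over both sets were CENPE, NUF2 and CDC20. CENPE (ENSG00000138778, hg38 chromosome 4, 103105806 to 103198409, minus strand) had 44.7, 53.0, 48.3, 48.3 and 51.4 CPM, from here on also scaled by TMM factors, in OE replicates 1 to 5, against 65.3, 59.1, 69.8, 52.9 and 41.8 in EV replicates 1 to 5. The EV libraries of the first set were the highest of the 10 and EV replicate 5 was the lowest, so the groups overlap. The log2 change was -0.22 (SE 0.11), with an unadjusted p of 0.0558 and an adjusted p of 0.847 by edgeR, and it was -0.13 with trends over gene length and GC content removed from each library. NUF2 had 57.4, 54.4, 54.8, 53.8 and 59.6 CPM in OE, against 55.0, 73.3, 59.8, 57.1 and 58.1 CPM in EV. EV replicate 2 was the highest of the 10 libraries and the others overlap, and the log2 change was -0.11 (SE 0.08, adjusted p = 0.880 by edgeR). CDC20 had 297, 299.9, 284, 319 and 321 CPM in OE, against 262, 298, 263, 294 and 323 CPM in EV. Its highest value was in EV replicate 5, and the log2 change of 0.08 (SE 0.06, adjusted p = 0.882 by edgeR) became -0.014 with the same trends removed.

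**Figure D2:**
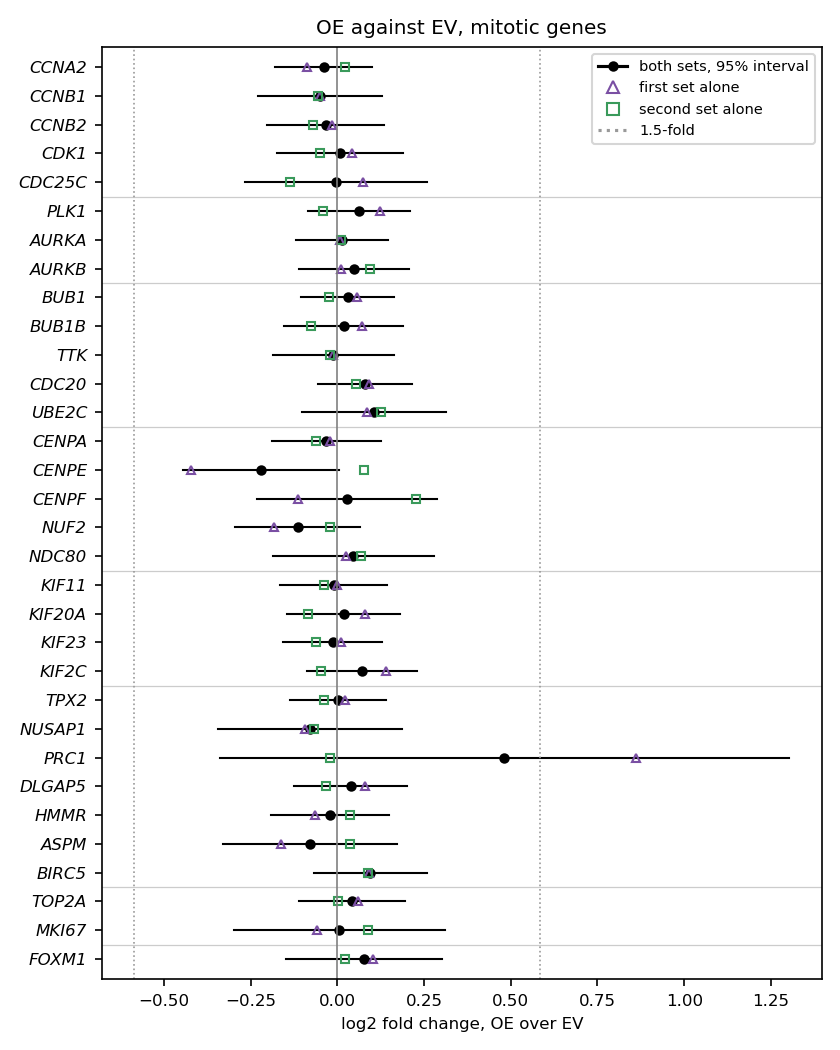
Log2 fold change of OE over EV on the x axis for each of the 32 genes, grouped by role down the page, with black points and lines for the estimate over both sets and its 95% interval, triangles for the first set and squares for the second set. The estimates over both sets lie between -0.22 and 0.11, apart from PRC1 at 0.48, and the dotted lines mark 1.5-fold.

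The first set alone set 3 OE against 3 EV libraries, and CENPE had the lowest p-value of the 32 genes. edgeR called 0 of 32 genes (0.0349% of 14340 genes tested), and CENPE was the 1 gene with an unadjusted p under 0.05, against 8.84% of all genes (DESeq2 and limma-voom also called 0 of the 32). CENPE had 44.7, 53.0 and 48.3 CPM in OE, against 65.3, 59.1 and 69.8 CPM in EV, so every OE library lay below every EV library. Its log2 change was -0.42 (SE 0.11, adjusted p = 0.379 by edgeR), and -0.28 with the trends over length and GC content removed. PLK1 was higher in all 3 OE libraries, with 208, 212 and 211 CPM in OE, against 191, 187 and 198 CPM in EV, at a log2 change of 0.12 (SE 0.08, adjusted p = 0.698 by edgeR). These 2 genes are 6.25% of the 32, against 17.0% of all genes with groups that do not overlap in this set.

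PRC1 and NUF2 had the next lowest p-values in the first set. PRC1 had 1.25, 0.777 and 0.970 CPM in OE, against 0.394, 0.387 and 0.848 CPM in EV, which are 22, 14 and 17 counts and 7, 6 and 14 counts. OE replicate 2 lay below EV replicate 3, so the groups overlap, and the log2 change was 0.86 (SE 0.46, adjusted p = 0.633 by edgeR). NUF2 had 57.4, 54.4 and 54.8 CPM in OE, against 55.0, 73.3 and 59.8 CPM in EV, at a log2 change of -0.18 (SE 0.11, adjusted p = 0.693 by edgeR). For NUF2, too, EV replicate 2 was the highest library, and the change was -0.05 without it.

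EV replicate 2 departed from the other libraries along gene length. Relative to the mean of the 10 libraries, the 8 longest genes (5525 to 12807 exonic bases, among them MKI67, CENPF, ASPM and CENPE) had a median log2 deviation of -0.25 in EV replicate 2, and the 8 shortest (1286 to 2875 bases, among them UBE2C, CENPA and CDC20) one of 0.25. The difference, longest minus shortest, was -0.49 in EV replicate 2, beside -0.19, -0.09 and 0.04 in OE replicates 1 to 3, 0.17 in EV replicate 1 and 0.26 in EV replicate 3. The same difference over all genes tested, between genes above the upper and below the lower quartile of length, was -0.41 in EV replicate 2 and lay between -0.13 and 0.20 in the other 9 libraries. MKI67, the longest of the 32 genes, had 433, 473 and 513 CPM in OE, against 549, 303 and 614 CPM in EV replicates 1 to 3. For CENPE, EV replicate 2 was also the lowest EV library of the first set, at 59.1 CPM, against 65.3 and 69.8 CPM in EV replicates 1 and 3. Its value in EV replicate 2 was still above all OE libraries.

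Without EV replicate 2, with 3 OE and 2 EV libraries left, 5 of the 32 genes passed the edgeR test (15.6%, against 10.7% of 14769 genes), 4 of them lower (12.5%, against 4.62%) and 1 higher (3.12%, against 6.07%). CENPE fell (-0.48, SE 0.08, adjusted p = 6.84e-04), and so did ASPM (-0.35, SE 0.07, adjusted p = 0.00161). MKI67 (-0.30, SE 0.07) and CENPF (-0.27, SE 0.07), fell as well, and UBE2C rose (0.28, SE 0.07). The 4 that fell are among the 8 longest of the 32 genes, and UBE2C is the shortest. In OE replicates 1 to 3 ASPM had 122, 133 and 126 CPM, against 156, 101 and 166 CPM in EV replicates 1 to 3. CENPF had 257, 299.7 and 269 CPM in OE, against 319.5, 223 and 343 CPM in EV, and UBE2C had 205, 193 and 181 CPM in OE, against 168, 228 and 147 CPM in EV. For all 3 genes EV replicate 2 lay on the far side of every OE library from the other EV libraries. With trends over length and GC content removed in addition, CENPE (-0.30, SE 0.07, adjusted p = 0.00875 by edgeR) and CDK1 (0.25, SE 0.05, adjusted p = 0.00577) were the 2 genes that passed (6.25%, against 5.92% of all genes). CDK1 had 156, 171 and 156 CPM in OE, against 141, 185 and 141 CPM in EV, where EV replicate 2 was the highest of the 6 libraries. This last fit was chosen after the data were seen, while leaving out each library in turn was planned.

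**Figure D3:**
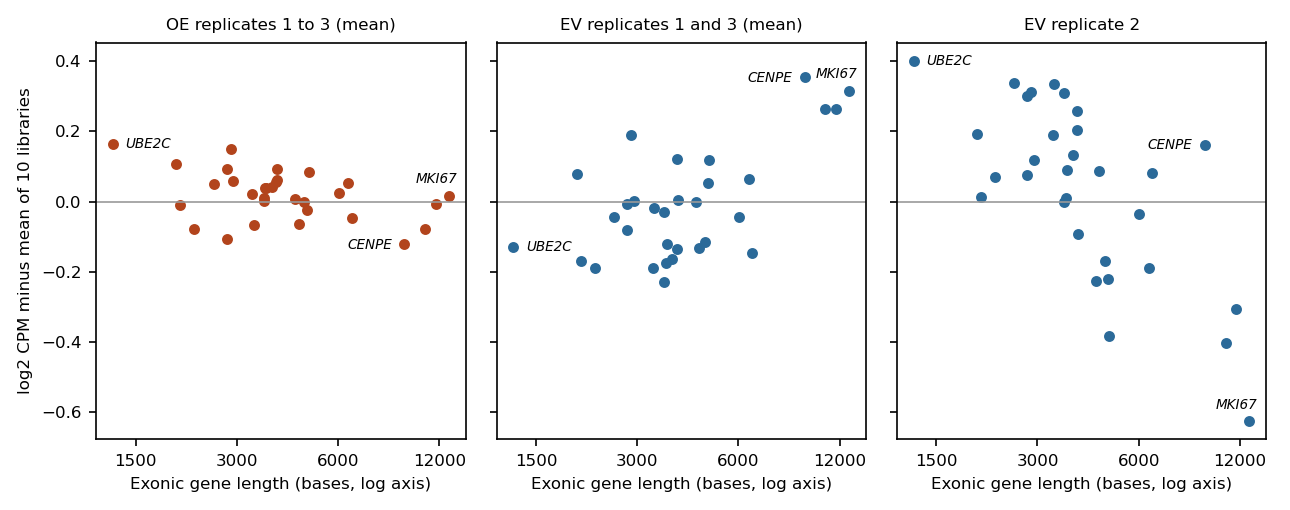
Log2 CPM minus the mean of the 10 libraries on the y axis against exonic gene length on a log x axis, for 31 genes (PRC1 is left out for its low counts), with the mean of OE replicates 1 to 3, the mean of EV replicates 1 and 3, and EV replicate 2 in separate panels. In EV replicate 2 the longest gene MKI67 lies at -0.62 and the shortest gene UBE2C at 0.40.

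In the second set alone, 2 OE against 2 EV libraries, edgeR called 0 of 32 genes and 0.0% of 14419 genes, and at an unadjusted p under 0.05 0 of 32, against 1.10% of all genes (DESeq2 and limma-voom also called 0 of the 32). UBE2C had 161 and 161 CPM in OE replicates 4 and 5, against 149 and 146 CPM in EV replicates 4 and 5, at a log2 change of 0.13 (SE 0.08, adjusted p = 0.9998 by edgeR). CENPF had 297 and 284 CPM in OE, against 289 and 208 CPM in EV, at 0.23 (SE 0.15). EV replicate 5 was the low library for CENPF: the change was 0.0078 without it and 0.48 without EV replicate 4. With the replicate number as a further term, edgeR called CENPF higher in OE, which is 1 of 32 (3.12%), against 0.492% of all genes. That fit has 1 residual degree of freedom. AURKB had 97.9 and 103 CPM in OE, against 89.6 and 99.3 CPM in EV, at 0.09 (SE 0.09). Groups did not overlap for UBE2C, which was higher, and for CCNB2 and KIF23, which were lower in OE, which is 3 of 32 (9.38%), against 25.0% of all genes.

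The change in OE cells did not pass a test of difference between the sets for any of the 32 genes (0 of 32, against 0.00703% of 14217 genes, by the interaction term of edgeR, and 0 of 32 by DESeq2 and limma-voom). CENPE had the lowest p. Its log2 change was 0.08 in the second set and -0.42 in the first set, a difference of 0.49 (SE 0.18, adjusted p = 0.9998 by edgeR), and it was the 1 gene of 32 with an unadjusted p under 0.05, against 3.49% of all genes. KIF2C had 107 and 112 CPM in OE, against 107 and 121 CPM in EV, in the second set. In the first set it had 113, 115 and 103 CPM in OE, against 97.8, 108 and 92.3 CPM in EV. The groups overlap in both sets, and its log2 change was -0.05 in the second set and 0.14 in the first set (difference -0.20, SE 0.15). CENPF had 0.23 and -0.11 in the same order (difference 0.32, SE 0.24). The authors' deposited table also compares OE with EV within each replicate number of the second set. With 1 library a side, the spread between replicates cannot be estimated there, so only the changes are given. The median log2 change of the 32 genes in it was 0.01 for number 5 and -0.03 for number 4.

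More of the 32 genes were called between the sets and between the replicate numbers than between OE and EV. The same held over all genes tested, with 18.4% called between the sets, 14.4% between the numbers and 0.0% between OE and EV. In the second set, CENPA, HMMR and NUSAP1 fell relative to the first set, and 0 genes rose: 3 of 32 (9.38%) were called by edgeR with group as a term, against 18.4% of 14217 genes in either direction and 9.17% called lower. CENPA had 36.9, 37.1, 36.6 and 40.7 CPM in the second set (OE replicates 4 and 5, then EV replicates 4 and 5), with a range in the first set of 42.0 to 48.8 CPM over 6 libraries (median 46.1). Every library of the second set lay below every library of the first set, and the log2 change was -0.28 (SE 0.08, adjusted p = 0.0200 by edgeR). HMMR had 42.9, 40.7, 44.3 and 37.3 CPM in the second set in the same order, and 45.7 to 54.9 CPM in the first set (median 51.4). These groups did not overlap either, and the log2 change was -0.30 (SE 0.08, adjusted p = 0.0220 by edgeR). NUSAP1 had 6.35, 9.25, 7.39 and 9.0 CPM in the second set and 10.4 to 12.0 CPM in the first set (median 10.9), at -0.47 (SE 0.13, adjusted p = 0.0229 by edgeR), with OE replicate 4 the lowest library.

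CCNB2 also did not overlap between the sets, which makes 4 of 32 genes (12.5%), against 16.6% of all genes (all 4 were lower in the second set, against 7.88% of all genes), and it had -0.24 (SE 0.08, adjusted p = 0.0544 by edgeR). AURKB at 0.23 (adjusted p = 0.0511) and UBE2C at -0.28 (adjusted p = 0.0672) lay on opposite sides of 0 and did not pass edgeR's test. Over the 32 genes the median was 0.02, with 17 above and 15 below 0. The G1/S and DNA replication list gave other counts in the same fit. Of its 39 genes, 23 were called higher in the second set and 0 lower (59.0%, against 9.27% of all genes called higher), with a median log2 change of 0.25. The number of the 32 genes called was 9 without EV replicate 2 (against 26.6% of all genes) and 5 without EV replicate 3 (against 17.4%). It was 1 (HMMR) without EV replicate 4 (against 9.11%) or without OE replicate 4 (against 11.9%), and 6 by DESeq2 (against 22.8%). The call of HMMR was lost when EV replicate 5 was left out (adjusted p = 0.0732 by edgeR), and also when OE replicate 2 was (0.0597). Those of CENPA and NUSAP1 were lost on leaving out replicate 4 of EV (adjusted p of 0.0734 for CENPA and 0.0855 for NUSAP1) or of OE (0.0535 for CENPA and 0.0778 for NUSAP1). With trends over length and GC content removed, 7 were called, against 20.4% of all genes: the same 3 and UBE2C lower, and CCNA2 (0.25), TTK (0.21) and AURKB (0.20) higher.

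Within the second set, replicate number 5 was set against number 4, with 1 library of each group per number and group as a term. Of the 32 genes, 6 were called by edgeR (18.8%, against 14.4% of 14419 genes). FOXM1, PLK1, KIF20A and TPX2 rose (12.5% of the 32, against 7.28% of all genes), and CENPF and ASPM fell (6.25%, against 7.10%). FOXM1, which drives transcription of many of these genes in G2, had 216 and 207 CPM in OE and EV replicate 5, against 170.3 and 175 CPM in OE and EV replicate 4. Both libraries of number 5 were above both of number 4, and the log2 change was 0.29 (SE 0.05, adjusted p = 3.51e-06 by edgeR). PLK1 had 239.7 and 244 CPM at number 5, against 206 and 216 CPM at number 4, at 0.20 (SE 0.05, adjusted p = 0.00266 by edgeR). Again both libraries of number 4 were below the matching ones of number 5. KIF20A had 112 and 123 CPM at number 5, against 98.6 and 101 CPM at number 4, at 0.23 (SE 0.06). TPX2 had 311 and 342 CPM at number 5, against 298 and 284 CPM at number 4, at 0.17 (SE 0.05), with most of the gap in the EV pair.

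CENPF and ASPM were lower at number 5 mainly in the EV libraries, a difference between the OE and EV pairs that was not tested. CENPF had 284 and 208 CPM in OE and EV replicate 5, against 297 and 289 CPM in OE and EV replicate 4, at -0.26 (SE 0.05, adjusted p = 1.35e-05 by edgeR). The log2 ratio of number 5 over number 4 was -0.06 in OE and -0.47 in EV. ASPM had 139.9 and 119 CPM at number 5, against 137 and 152 CPM at number 4, with log2 ratios of 0.03 in OE and -0.35 in EV (adjusted p = 0.0483 by edgeR, with a call that ended under 6 of the alternatives). Over the 32 genes, 26 had the same sign in the OE and the EV pair (18 higher, 8 lower at number 5), and the median log2 change was 0.09, beside -0.0022 for all genes. The share of all genes with the same sign is not given here. Over all genes tested, the deviations of same-numbered libraries of this set from their group mean correlated at 0.31. With only replicates 4 and 5 in a group, these deviations mirror each other, so this is a single value for the set. DESeq2 called 1 of the 32 genes, FOXM1, and 380 genes in all (3.52%), against 2074 for edgeR. With trends over length and GC content removed, 7 of the 32 were called (against 14.5% of all genes): ASPM lost its call, and CCNB1 (0.14, adjusted p = 0.0314 by edgeR) and MKI67 (-0.15, adjusted p = 0.0155) gained one. The fit has 1 residual degree of freedom, so its spread is taken almost wholly from that of all genes. The sources used here do not say what the replicate numbers stand for.

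**Figure D4:**
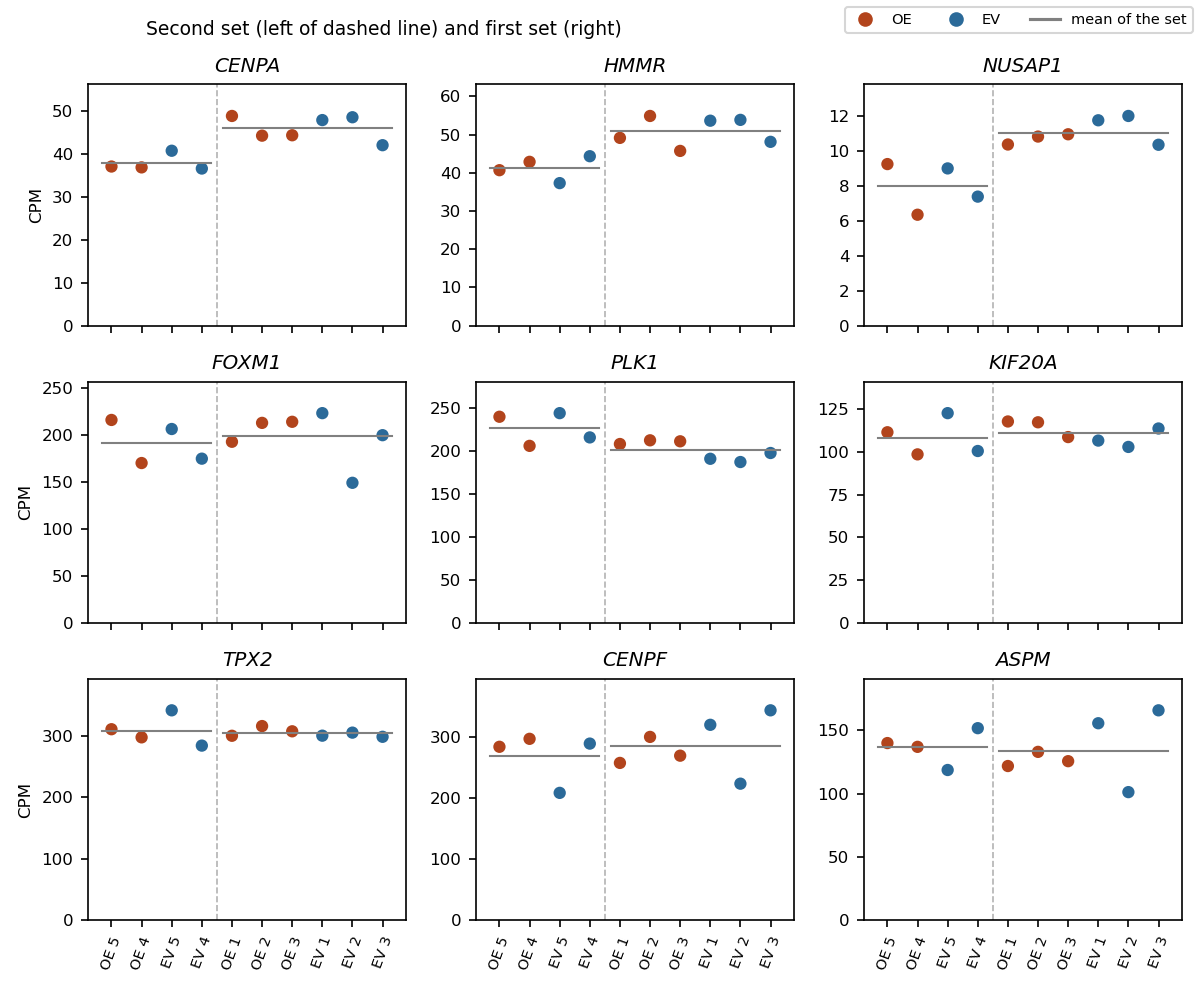
CPM of the 9 genes called between sets (top row) or between replicate numbers 5 and 4 (other rows), with the second set left of the dashed line, the first set right of it, OE in red-brown, EV in blue and grey lines at the mean of each set. CENPA, HMMR and NUSAP1 are lower in every library of the second set than in any of the first set, and FOXM1, PLK1, KIF20A and TPX2 are higher at number 5 than at number 4 in both groups.

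**Figure D5:**
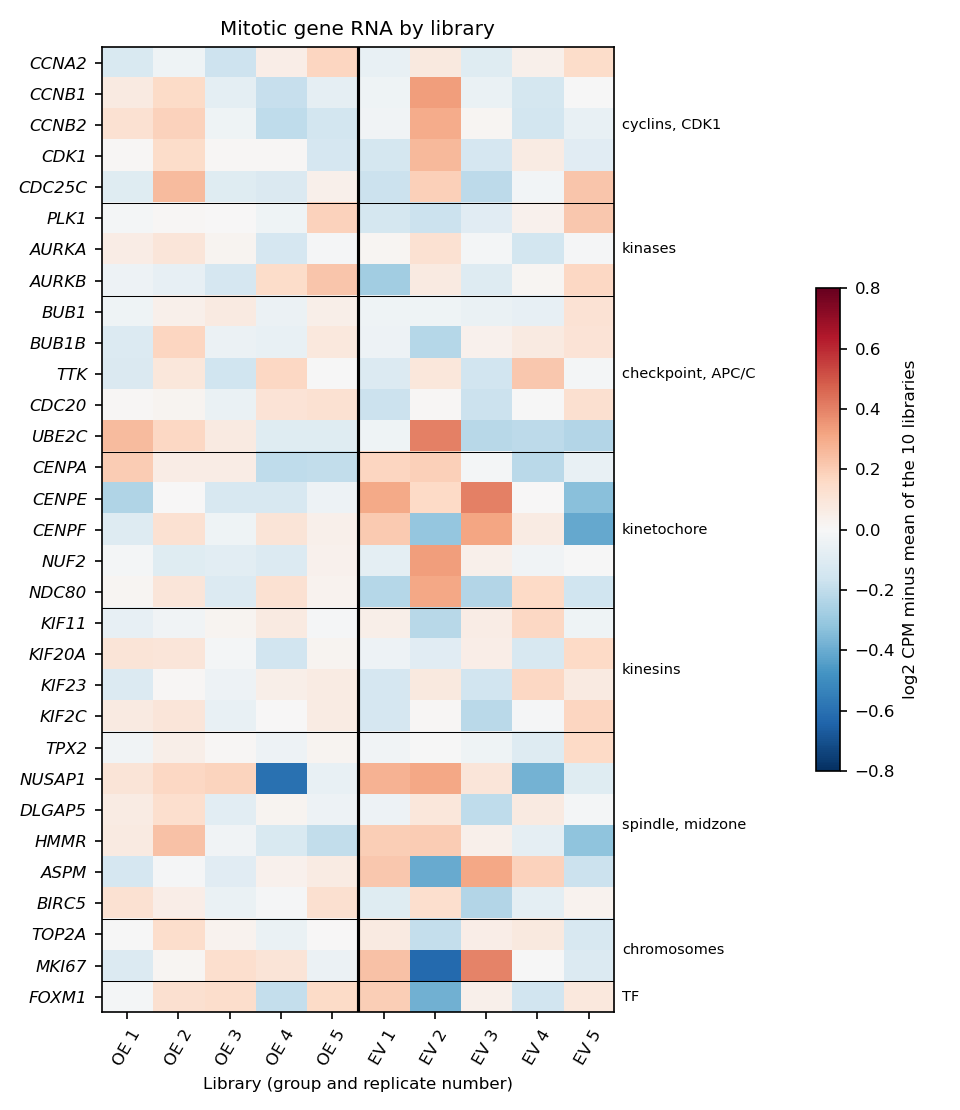
Colour gives log2 CPM minus the mean of the 10 libraries for 31 genes (rows, grouped by role; PRC1 is left out for its low counts) in the OE libraries (left of the line) and the EV libraries (right). EV replicate 2 holds the strongest blue for MKI67 (-0.62), OE replicate 4 a strong blue for NUSAP1 (-0.60), and no row separates OE from EV.

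Across all 10 libraries, the genes differed in how far the libraries spread. The highest library exceeded the lowest by 1.13 times for BUB1, 1.2 times for TPX2 and AURKA, 1.65 times for CENPF, 1.67 times for CENPE, 1.89 times for NUSAP1, 2.03 times for MKI67 and 4.12 times for PRC1, which had the lowest counts. Lists of other genes of the pathway gave 0 calls by edgeR for OE against EV over both sets as well (0.0% of all genes). The 50 other G2/M and mitosis genes had a median log2 change of 0.03, with 29 above 0, and the lowest p-values belonged to FZR1, the second activator of the anaphase-promoting complex (0.26, SE 0.08), and TACC3, a spindle microtubule protein (0.11, SE 0.06), both with an adjusted p of 0.847. The 13 core genes of the anaphase-promoting complex had a median of -0.03, the 10 condensin and lamin genes 0.04, and the 13 genes of the DREAM complex and MYBL2 -0.01. The 16 inhibitory kinases, CDK inhibitors and G2 checkpoint genes had a median of 0.04, with PKMYT1, the membrane-bound kinase that inhibits CDK1, at 0.19 (SE 0.08). GADD45A, a stress-induced inhibitor of the CDK1 and cyclin B complex, had -0.43 (SE 0.19, adjusted p = 0.847 by edgeR), with 0.34 in the second set and -0.93 in the first set, and it passed the test where no filter on low counts was used (adjusted p = 0.00212). The 39 G1/S and DNA replication genes had a median of 0.02, with CCND3, a D-type cyclin, at 0.24 (SE 0.07) and PRIM1, the primase subunit, at -0.30 (SE 0.11). In the comparison of replicate numbers, 14 of the 50 other mitosis genes were called higher at number 5 and 4 lower (36.0%, against 14.4% of all genes).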

How the data were processed

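RNA was sequenced from 10 TPC-1 libraries, 5 per group, prepared per the labels' protocols with TRIzol, DNase I and a NEBNext Ultra kit. The submitters' processing notes name CASAVA 1.8, fastp, HISAT2 2.0.5, featureCounts 1.5.0-p3, DESeq2 1.20.0 and the build hg38, without their settings. The authors deposited gene counts in 2 tables, 1 per set, and for the second set also log2 fold changes and p-values of OE against EV per replicate number. Another 14 per-library columns were not used.

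The counts were tested with edgeR 4.0.16 (quasi-likelihood, TMM scaling, filterByExpr) over all genes, with Benjamini-Hochberg adjustment at 0.05. OE was compared with EV over both sets, with set as a term, and within each set. The difference of that change between the sets, the second against the first set, and number 5 against number 4 were also tested. CPM are counts scaled to the library total and, for the genes tested, to TMM factors (not for markers, floors and genes sharing exons), and TPM use the deposited lengths. Alternatives were RLE scaling, no filter, DESeq2 1.42.0, limma-voom (limma 3.58.1), no set term, a replicate block and leaving out each library. Length and GC offsets (lowess, span 0.2) and a bias-adjusted quasi-likelihood fit were added after the data were seen. R 4.3.3 was used. The tests, except that of the difference between sets, were also run on simulated counts with larger changes than those reported here. That check therefore does not cover small changes. Values per library are given for the 3 genes with the lowest p of each comparison and for called genes, and at most 2 genes of each other pathway list are named, beside the markers of cell identity and of other cells. The members and lists were chosen with earlier results of these data known. The floor of 3 counts covers counting error only.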

Additional observations from a re-analysis of the deposited data

Results flagged for a closer look

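In 68 groups of 5 libraries, 64 of them the 32 genes in OE and in EV, the highest or lowest library was compared with the others of its group, and chance alone marks about 1 in 20 such groups. Of the 68 groups, 4 were marked, which is near that share, and each group held libraries of both sets. In OE, PLK1 was highest in replicate 5, at 239.7 CPM. The other libraries of its group lay between 206 and 212 CPM, a gap of 0.797 of the whole range. In EV, CCNB1 was highest in replicate 2, at 376 CPM (gap 0.712 of the range), and BUB1 in replicate 5, at 161 CPM (gap 0.810). Among the EV libraries, the median log2 deviation of the 32 genes from the mean of the 10 libraries was highest in replicate 2, at 0.078. The other EV libraries lay between -0.04 and -0.0051 (gap 0.726), and OE replicate 2 was higher still, at 0.093. EV replicate 2 is also the library with the high share of ribosomal protein counts and the low values of long genes, and their part in these values was not tested.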

How the results depend on the processing

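Over both sets, 0 of the 32 genes were called under every alternative and with any library left out, while the genes called in all went from 0 to 23 without the filter and 6 by DESeq2. CDC20 became -0.014 with length and GC offsets. In the first set, 5 genes were called in all, against 90 without the filter, 76 by DESeq2, 1 with the replicate block, 11 with offsets, 874 with offsets and EV replicate 2 left out, and 0 to 1578 with a library left out. Of the 32 genes, 2 were called with offsets and EV replicate 2 left out, and 0 to 5 with a library left out. MKI67 (-0.06) turned to 0.0049 by limma-voom, 0.0015 with the block and 0.0018 with offsets. With a library left out it ran from -0.30 to 0.15, CDK1 from -0.022 to 0.19, CENPF from -0.27 to 0.016 and UBE2C from -0.040 to 0.28. In the second set, 0 genes became 12 without the filter, 1 by DESeq2, 71 with the block, and 0 to 1 with a library left out. For the difference between sets, 1 gene became 28 without the filter, 9 by DESeq2, 3 with the block, 3 with offsets and 0 to 7 with a library left out, and the median of the 32 genes ran from -0.10 to 0.034 (0.034 without EV replicate 5). Between the sets, 2621 genes became 1312 to 3850 with a library left out, and the 3 genes of the 32 became 6 by DESeq2, 7 with offsets and 1 to 9. Between numbers, 2074 genes became 380 and 6 of the 32 became 1 by DESeq2, and 7 with offsets. No fit of the numbers was possible with a library left out. The causes of these shifts were not tested.

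Replicate numbers were not taken as pairs, because the sources used here do not say that a number marks a shared culture. The deviations of same-numbered OE and EV libraries correlated at -0.11, 0.0035 and 0.16 in the first set. In the second set they correlated at 0.31, and the test without a block leaves such shared variation in its error. With the replicate block, CENPF in the second set was called (0.24, adjusted p = 0.00171 by edgeR), 1 of 32, against 0.492% of all genes. Counts of 6 to 25 for PRC1 limit its precision. Having 1 residual degree of freedom limits the comparison of numbers and the block fit of the second set.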
